A study of Rattus norvegicus with 9 samples.

Results

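The glycosyltransferases described here are the enzymes of the rat prostate that add galactose, N-acetylglucosamine, N-acetylgalactosamine, sialic acid or fucose to growing glycan chains. A probe of the array was taken as a member when its RefSeq accession belonged to a gene whose symbol starts with B3gal, B3gnt, B4gal, Galnt, Gcnt, St3gal, St6gal or St8sia, or with Fut and a digit. This gave 80 of 30356 probes and 68 of 15163 genes with a symbol. A further 13 protein-coding genes of the RefSeq table fit these symbols without a matched probe and were not analysed here. The genes were chosen by name, except that 1 of them, B3galt5, was also chosen by its log2 values in the 3 groups of these same arrays, so its values are given as a description without a test, and it is left out of every count of the other 67 members. The symbols also collect enzymes that are known to act mainly on glycolipids (among others B3galnt1, B3galt4 and St3gal5) or on the linker of proteoglycans (B3galt6 and B4galt7), so that not every member works on secreted glycoproteins.

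Glycosyltransferases of the Golgi apparatus work in sequence on proteins that pass through the secretory pathway. Members of the Galnt family start mucin-type O-glycans by adding N-acetylgalactosamine to serine or threonine, Gcnt enzymes add branches, B3gnt and B4galt enzymes extend the chains with N-acetylglucosamine and galactose, and sialyltransferases and fucosyltransferases finish them. The rat prostate and its neighbouring glands release large amounts of glycoproteins into the seminal fluid, and much of this secretion depends on androgens.

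Gene expression was measured with Agilent one-colour arrays in prostates of male Sprague Dawley rats, bought at an age of 6 weeks, with 3 arrays in each of 3 groups. Rats of the sham group had a sham operation, corn oil injections and oral water. Rats of the BPH group (benign prostatic hyperplasia) were castrated and received dihydrotestosterone (3 mg/kg, subcutaneously, once daily for 4 weeks) and oral water. Rats of the BPH+ghrelin group had the same castration and injections and received rat ghrelin by gavage (20 nmol/kg, once daily) during the last 2 weeks. Both BPH groups therefore lack testes and depend on the injected androgen, while the sham rats keep their own hormones. A legend of the study gives ghrelin with another dose and an intraperitoneal route, and the dose and route given here are those of the methods. The methods give groups of 3 for the arrays, and other legends name those of the BPH and BPH+ghrelin groups as rats, while no source used here ties an array to a particular animal.

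All values are log2 signals after quantile normalization over the 9 arrays. The median raw signal ranged from 40.9 on sham replicate 2 to 133 on BPH replicate 1, and 0 spots were saturated. Sham replicate 2 also had the lowest share of probes that the scanner software marked as well above background (61.4%, against 69.5% to 75% elsewhere). By the scan times in the file headers, the BPH arrays were scanned with BPH+ghrelin replicate 1, and BPH+ghrelin replicates 2 and 3 with sham replicates 1 and 2, while sham replicate 3 was scanned apart. At 17858 probes that were well above background everywhere, the middle value of a group came mostly from the same array: sham replicate 3 (76.9%), BPH replicate 2 (74.7%) and BPH+ghrelin replicate 2 (72.2%). These arrays gave the middle value at 30, 29 and 34 of 38 probes of the members. With those 3 arrays left out, which was tried after values had been seen, limma called 0 members in each comparison, and 6, 3 and 6 members had an unadjusted p under 0.05 in BPH against sham, BPH+ghrelin against BPH and BPH+ghrelin against sham. Over all genes this fit called 3, 0 and 2, so that its counts say nothing particular to the members.

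Of the 68 genes, 36 were well above background on all 9 arrays, 21 on some, and 11 on none (B3galt1, Galnt13, Galnt17, Galntl5, Galntl6, Gcnt3, St6galnac1, St8sia1, St8sia2, St8sia5 and Fut10). A comparison of 2 groups took the genes with a probe well above background on 3 or more of their 6 arrays. Of the 67 members other than B3galt5, 48 were tested in BPH against sham, 49 in BPH+ghrelin against BPH and 46 in BPH+ghrelin against sham. Of these, B3gnt8, B4galt2 and Galnt10 in BPH against sham and Gcnt1 in BPH+ghrelin against BPH passed only through the BPH arrays, where they were brighter. In total, 44 genes were tested in all 3 comparisons and 17 in none. A call is an adjusted p under 0.05 in limma, with Benjamini-Hochberg adjustment over all genes of the array that were tested, and the difference is that of the group means on the log2 scale. The arrays came from whole prostates, in which fewer cells of a type and less RNA per cell cannot be told apart.

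B3galt5 adds galactose to N-acetylglucosamine at the ends of chains, which gives the backbone of some Lewis antigens. Its brighter probe had log2 signals of 4.58, 4.97 and 5.13 in the BPH arrays and was well above background on all of them. In the sham arrays it had 3.75, 1.06 and 2.77 and was well above background only on replicate 1. In the BPH+ghrelin arrays it had 1.26, 1.27 and 0.72, and was well above background on 0 of 3. The 3 BPH values therefore lay above all others, and 1 sham array also carried a measurable signal, so that the gene was not seen in BPH alone. Against the limit of detection, B3galt5 was at least 4.57-fold lower in BPH+ghrelin than in BPH. The measured means of sham (2.53 ± 1.36, SD, n = 3) and BPH (4.90 ± 0.28, SD, n = 3) were 2.37 apart on the log2 scale, and 1.65 to 2.98 with 1 array left out, but 2 of the 3 sham values lie below detection and the size of this difference is not known. Within the scan that both BPH groups share, the BPH+ghrelin array was the one at 1.26, below the 3 BPH arrays. A second probe of B3galt5 was not well above background on any of the 9 arrays. With normexp background correction, the measured means were closer, at differences of 0.37 (BPH against sham) and -0.46 (BPH+ghrelin against BPH). The bound of 4.57-fold therefore holds only for the scanner's own background correction.

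Among members whose arrays did not overlap in BPH+ghrelin against sham, the 3 largest differences were those of St3gal6, B3gnt7 and Gcnt2, and in all of them the sham arrays were highest and the BPH+ghrelin arrays lowest by group mean. St3gal6 transfers sialic acid to galactose at the ends of glycans. B3gnt7 adds N-acetylglucosamine to galactose and extends poly-N-acetyllactosamine chains, among them those of keratan sulfate. Gcnt2 is the I-branching enzyme, which makes branched from linear poly-N-acetyllactosamine.

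Because these 3 genes lie in the same order by group, the 250 bases before their annotated starts are shown from RefSeq (assembly GRCr8), 5′ to 3′ on the strand of the gene. Capitals mark exact matches, on either strand, to 6 short motifs: the androgen response element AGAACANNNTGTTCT, its single arm TGTTCT, the TATA box TATAAA, the CCAAT box CCAAT, the GC box GGGCGG and the E-box CACGTG. Any full androgen response element contains this arm. The window of St3gal6 is chr11:55546538-55546787 (plus strand), that of B3gnt7 chr9:94403947-94404196 (plus strand), and Gcnt2 has 2 annotated starts, with windows at chr17:24073549-24073798 and chr17:24044648-24044897 (minus strand).
St3gal6: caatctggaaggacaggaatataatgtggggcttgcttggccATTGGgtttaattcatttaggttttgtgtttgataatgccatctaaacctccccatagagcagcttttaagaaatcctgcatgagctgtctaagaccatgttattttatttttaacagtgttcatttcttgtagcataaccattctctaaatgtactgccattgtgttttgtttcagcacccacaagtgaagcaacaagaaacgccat
B3gnt7: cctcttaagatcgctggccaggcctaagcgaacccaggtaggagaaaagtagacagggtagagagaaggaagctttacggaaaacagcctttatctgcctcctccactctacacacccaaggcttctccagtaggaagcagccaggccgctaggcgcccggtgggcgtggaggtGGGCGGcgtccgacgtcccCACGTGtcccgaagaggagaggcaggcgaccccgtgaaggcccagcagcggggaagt
Gcnt2, first start: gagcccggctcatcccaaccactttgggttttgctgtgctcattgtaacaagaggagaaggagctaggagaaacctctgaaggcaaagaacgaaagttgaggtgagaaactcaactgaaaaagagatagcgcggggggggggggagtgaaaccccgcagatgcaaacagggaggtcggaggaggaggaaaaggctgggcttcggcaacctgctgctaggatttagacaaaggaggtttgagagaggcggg
Gcnt2, second start: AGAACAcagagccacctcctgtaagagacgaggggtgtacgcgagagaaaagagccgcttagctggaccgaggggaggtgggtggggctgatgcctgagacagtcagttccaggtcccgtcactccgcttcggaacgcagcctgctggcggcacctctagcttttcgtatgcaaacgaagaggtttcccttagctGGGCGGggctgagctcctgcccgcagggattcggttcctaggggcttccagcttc
In these windows, St3gal6 held a CCAAT box on the opposite strand, B3gnt7 a GC box and an E-box, and the second start of Gcnt2 a GC box and a single arm, also on the opposite strand. The first start of Gcnt2 held none of these letters. Of the members, 57 had 63 annotated promoters in the table. The full androgen response element occurred in 0 of these 63 windows and in 0.012% of all 33469 windows, and the single arm in 15.9% and 17.5%. A GC box was found in 46.0% of the windows of members and in 30.5% of all, an E-box in 9.52% and 5.59%, a CCAAT box in 30.2% and 34.0%, and a TATA box in 6.35% and 12.9%. The windows of members had a median GC content of 58.4% and 11 CpG dinucleotides, compared to 51.2% and 5 over all windows. A match is a run of letters and says nothing on binding.

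St3gal6 had log2 signals of 11.19, 9.76 and 10.81 in the sham arrays, 7.53, 6.79 and 6.36 in the BPH arrays, and 5.86, 5.76 and 5.48 in the BPH+ghrelin arrays. No array of one group overlapped with any of another. The signal was 12.9-fold lower in BPH than in sham (log2 difference -3.69, SE 0.40, adjusted p = 0.00433, limma), and 29.5-fold lower in BPH+ghrelin than in sham (-4.88, adjusted p = 0.000737, limma). Between BPH+ghrelin and BPH it differed by -1.19 (adjusted p = 0.157, limma), which did not pass the threshold. Both calls against sham were kept when any single array was left out. With scan as a block, the difference between BPH and sham was -3.82 but no longer called (adjusted p = 0.371, limma), and within the scan shared by BPH+ghrelin and sham the difference was -4.85. Without the 3 arrays that lie between the others, the differences from sham were -3.54 and -4.82, with adjusted p of 0.412 and 0.166 (limma).

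B3gnt7 had 9.11, 8.66 and 8.88 in sham, 7.89, 7.63 and 7.16 in BPH, and 6.51, 6.32 and 6.20 in BPH+ghrelin. Again the arrays of the 3 groups did not overlap. It was the only member that passed the threshold in all 3 comparisons, with 2.50-fold lower signals in BPH than in sham (-1.32, SE 0.21, adjusted p = 0.0175, limma), 2.32-fold lower signals in BPH+ghrelin than in BPH (-1.22, adjusted p = 0.0393) and 5.81-fold lower signals in BPH+ghrelin than in sham (-2.54, adjusted p = 0.000737). The 3 comparisons share arrays and are not independent. The call in BPH against sham was lost without sham replicate 3 (adjusted p = 0.0769, limma) or BPH replicate 2 (0.089). With the 6 arrays only (0.0732) or scan as a block (0.495) this call was lost as well. The call in BPH+ghrelin against BPH was kept only without BPH replicate 3, and the adjusted p was 0.129 without BPH replicate 1, 0.206 without BPH replicate 2, and 0.0731, 0.175 and 0.112 without BPH+ghrelin replicates 1, 2 and 3. It was also lost with normexp (-0.73, adjusted p = 0.0595), without the filter on dim probes (0.0549), and with replicate number (0.066) or scan (0.393) as a block. The difference between BPH+ghrelin and sham was called with each array left out. Within the shared scans, the log2 difference of B3gnt7 was -1.05 in BPH+ghrelin against BPH (1 and 3 arrays) and -2.62 in BPH+ghrelin against sham (2 and 2 arrays).

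Gcnt2 had 8.97, 8.07 and 8.63 in sham, 7.63, 7.42 and 7.27 in BPH, and 7.27, 6.95 and 6.59 in BPH+ghrelin. The sham arrays lay above all others, while the 2 BPH groups met at 7.27. In BPH+ghrelin the signal was 3.08-fold lower than in sham (-1.62, SE 0.26, adjusted p = 0.0136, limma). This call was lost without sham replicate 3 (adjusted p = 0.0633) or BPH+ghrelin replicate 2 (0.0675). The difference between BPH and sham (-1.12, adjusted p = 0.053, limma) did not pass, but did so without sham replicate 1 (0.0499) or sham replicate 2 (0.0217).

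**Figure D1:**
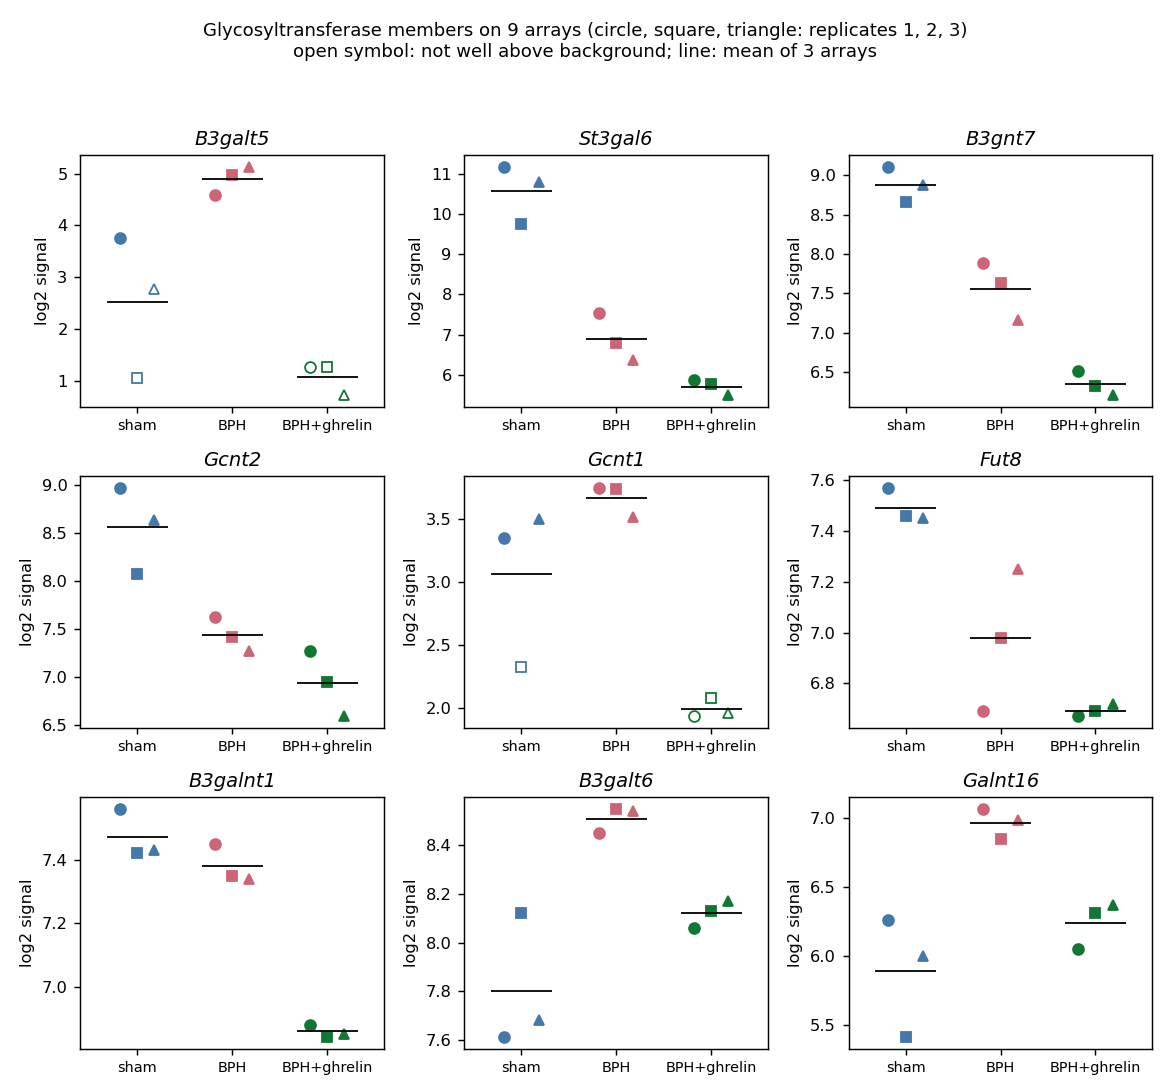
Log2 signal (vertical axes) of 9 members on each of 9 arrays, by group; circles, squares and triangles are replicates 1, 2 and 3, open symbols are not well above background, and lines are means of 3 arrays. St3gal6, B3gnt7 and Gcnt2 step down from sham to BPH+ghrelin, while the BPH arrays are highest for B3galt5, B3galt6 and Galnt16.

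The androgen-dependent and glandular content of the tissue differed between the same groups. Pbsn (probasin, an androgen-dependent protein of the prostate) was lower in BPH than in sham (log2 difference -2.65, adjusted p = 0.00191, limma), and still had 13.11 to 16.41 on all 9 arrays. Of 7 markers of seminal vesicle and coagulating gland with a probe, 1 (Aoc1) was not well above background on any array, and the summed linear signal of the list was 90300 to 158000 in sham, 717 to 28300 in BPH and 550 to 3890 in BPH+ghrelin. Of 6 tested genes of this list, 3 were called lower in BPH than in sham (Svs3a, Svs3b and Svs4, secretory proteins of the seminal vesicle), and 2 were higher by sign (Svs5 and Svs6). Over all genes, 2.18% were called lower and 53.7% were higher by sign. The call of Svs3b was kept with each array left out, while those of Svs3a and Svs4 were lost without sham replicate 3 (adjusted p = 0.0578 and 0.132, limma), BPH replicate 2 (0.0618 and 0.135) or BPH replicate 3 (0.0507 and 0.0853). Semg1 (semenogelin), with the brightest sham signals of the list, had 16.69, 16.07 and 16.69 in sham, 14.53, 13.63 and 7.35 in BPH, and 10.14, 9.45 and 5.24 in BPH+ghrelin, and was not called in BPH against sham (-4.64, adjusted p = 0.172, limma). The order of the arrays within each group by this summed signal was the same as by St3gal6, B3gnt7 and Gcnt2, and the summed signals of the lists for epithelium in general and for mucins had this order too. Of 44 members tested in all comparisons, 8 (18.2%) had this order in all 3 groups, compared to 8.37% of 18893 genes. These 8 include St3gal6, B3gnt7 and Gcnt2 themselves. Another order, shared by the lists of smooth muscle, striated muscle and core 1 and N-glycan branching, was found for 6 members (13.6%) and 9.83% of genes. Immune markers also had a lower summed signal in BPH (999 to 2180) and BPH+ghrelin (851 to 916) than in sham (6050 to 26200), mainly from Cd52, which is known in lymphocytes and in the male genital tract. The part of these marker genes in the results of the members was not tested.

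**Figure D2:**
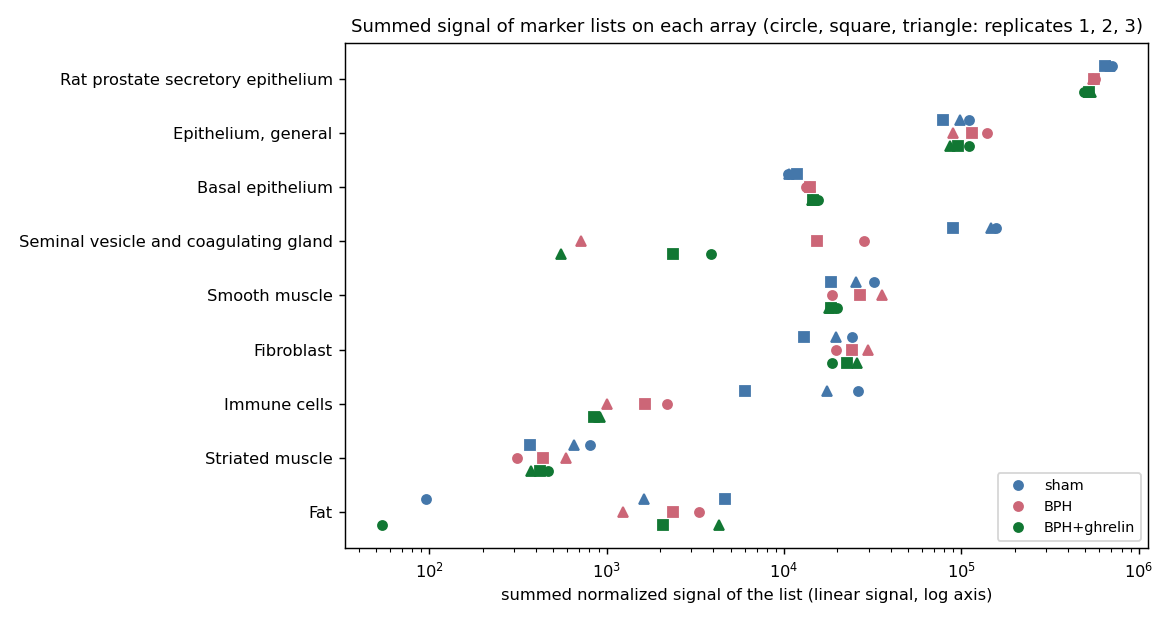
Summed linear signal of 9 marker lists (rows) on each array, on a log axis; colours are groups, and circles, squares and triangles are replicates 1, 2 and 3. Signals of seminal vesicle and coagulating gland span 550 to 158000, while those of the rat prostate secretory epithelium stay between 494000 and 704000.

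In BPH against sham, 4 of 48 members were called (8.33%), and over all genes tested 849 of 19552 (4.34%). Of these members 2 were higher and 2 lower in BPH, compared to 2.16% and 2.18% of all genes. The 4 genes were St3gal6 and B3gnt7 (lower), and Galnt16 and B3galt6 (higher). By sign, 32 members (66.7%) were higher in BPH and 16 lower, compared to 53.7% of all genes that were higher, with a median log2 difference of 0.22, and the median of all genes was 0.04. The median of the members was 0.03 after scaling to the 75th percentile and with normexp, 0.07 without the filter on dim probes, and 0.08 to 0.39 with 1 array left out, the lowest without sham replicate 2. The arrays did not overlap for 15 members that were higher and 7 that were lower, and over all genes for 17.1% and 14.2%. An unadjusted p under 0.05 was found for 19 members and 26.5% of all genes. The filter favoured the direction of B4galt2, B3gnt8 and Galnt10. All of them are in the count by sign, B4galt2 is also in that without overlap, and B3gnt8 is also among the 19 members. With the filter on all 6 arrays, 5 of 36 members were called (Gcnt2 besides these 4), and over all genes 1067 of 16279 (6.55%). Under that filter 23 of the 36 members (63.9%) were higher by sign, compared to 51% of all genes. Also higher by sign were 8 of 10 markers of epithelium in general, 5 of 6 of basal epithelium and 8 of 8 of fibroblasts. Krt8, Spint1, Krt14 and Krt17 were called (adjusted p = 0.00909, 0.0355, 0.0447 and 0.0355, limma), each lost without sham replicate 3 or BPH replicate 2. Spint1, Krt14 and Krt17 were also lost without BPH replicate 1 (0.0786, 0.0943 and 0.0779) or 3 (0.0719, 0.0866 and 0.0754). Krt14 was lost without sham replicate 2 as well (0.0579). Of striated muscle markers 5 of 7 were lower, and Ckm was called (-1.90, adjusted p = 0.00451, limma) with each array left out. Their part in these values was not tested.

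Galnt16, a polypeptide N-acetylgalactosaminyltransferase, had 6.26, 5.41 and 6.00 in sham, 7.07, 6.85 and 6.99 in BPH and 6.05, 6.31 and 6.37 in BPH+ghrelin. The BPH arrays were above all 6 others, by 1.08 on the log2 scale compared to sham (SE 0.22, adjusted p = 0.0364, limma), which is 2.12-fold. B3galt6, which adds a galactose of the linker of proteoglycans, had 7.61, 8.12 and 7.68 in sham, 8.45, 8.55 and 8.54 in BPH and 8.06, 8.13 and 8.17 in BPH+ghrelin. It was 1.63-fold higher in BPH than in sham (0.71, SE 0.15, adjusted p = 0.0417, limma), and again the BPH arrays lay above the others. Both calls were lost without sham replicate 3 or any 1 BPH array, with adjusted p of 0.114, 0.0805, 0.136 and 0.10 for Galnt16 and 0.15, 0.0725, 0.181 and 0.109 for B3galt6 without sham replicate 3 and BPH replicates 1, 2 and 3. Galnt16 and B3galt6 were also lost without the filter (0.0544 and 0.06) and with the 6 arrays only (0.112 and 0.129). The same held with replicate number (0.0779 and 0.0824) or scan (0.563 and 0.736) as a block. With the mean of its probes B3galt6 was not called either (0.54, adjusted p = 0.0519, limma). In both genes the BPH+ghrelin arrays lay below the BPH arrays, with differences of -0.73 for Galnt16 (adjusted p = 0.125) and -0.39 for B3galt6 (adjusted p = 0.194), neither of which passed in limma.

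The arrays of 13 members that were not called also lay higher in BPH without overlap, and B4galt2 and St6galnac2, with the largest measured differences, are given as examples. B4galt2, which adds galactose to N-acetylglucosamine, had 2.80, 0.82 and 2.82 in sham, not well above background on any of them, and 3.00, 3.05 and 3.57 in BPH. Only a bound is therefore known, at least 1.06-fold higher in BPH. The adjusted p of 0.255 (limma) belongs to the measured log2 difference of 1.06, which rests on sham values below detection, and not to this bound. With normexp the measured log2 difference of B4galt2 was 0.05, so that this bound too holds only for the scanner's own background correction. St6galnac2, which adds sialic acid to the first sugar of O-glycans, had 7.25, 5.72 and 6.74 in sham and 7.50, 7.41 and 7.34 in BPH (0.85, adjusted p = 0.181), and was called without sham replicate 1 (0.0471). Sham replicate 2, the dimmest array, was the lowest sham array for both. The count of called members was 12 without sham replicate 1, 5 without sham replicate 2 and 1 without sham replicate 3, and 2, 1 and 2 without BPH replicates 1, 2 and 3. The count over all genes went the same way, at 3082, 919 and 160 without the sham arrays and 595, 119 and 262 without the BPH arrays, from 849. BPH and sham shared no scan. With scan as a block, a fit that links them only through the BPH+ghrelin arrays, limma called 0 members and 2 genes in all, and 8 members had an unadjusted p under 0.05.

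In BPH+ghrelin against BPH, which bears on the effect of oral ghrelin, 2 of 49 members were called (4.08%), both lower, and over all genes tested 293 of 19749 (1.48%), with 0.987% of all genes lower and 0.496% higher. These were B3gnt7 and Gcnt1, and since Gcnt1 was tested only through its BPH arrays, this count is not set against that of all genes. Among 40 members with a probe well above background on all 6 arrays, 1 was called (B3gnt7), and over all genes under this filter 265 of 17740 (1.49%). Of these 40 members 10 (25%) were higher by sign, compared to 53% of all genes. By sign 37 members were lower and 12 (24.5%) higher, compared to 51.7% of all genes that were higher, with a median of -0.34, compared to 0.02 over all genes. With normexp background correction the median was -0.10. The arrays did not overlap for 23 members that were lower and 2 that were higher, and over all genes for 19.3% and 19.8%. An unadjusted p under 0.05 was found for 14 members and 21.1% of all genes. Gcnt1, whose direction the filter favoured, is in the counts by sign, without overlap and by unadjusted p. Among the 40 members well above background on all 6 arrays, the arrays did not overlap for 21 that were lower and 2 that were higher. The share of all genes without overlap was not worked out under this filter, so these counts are given as a description only.

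Gcnt1 makes the core 2 branch of O-glycans. Its brighter probe had 3.75, 3.74 and 3.52 in BPH, all well above background, and 1.93, 2.08 and 1.96 in BPH+ghrelin, none of them well above background. In sham it had 3.35, 2.32 and 3.50, of which 2 arrays were well above background. Against the limit of detection, Gcnt1 was at least 1.95-fold lower in BPH+ghrelin than in BPH, and it was not tested against sham. The adjusted p of 0.0375 (limma) belongs to the measured log2 difference of -1.68, which rests on values below detection, and not to this bound. With the BPH+ghrelin arrays all below detection, the size of the difference is known only as this bound, and the filter had let the gene in through the arrays where it was brighter. The call was lost with any single array left out, with adjusted p from 0.0516 (without BPH replicate 3) to 0.186 (without BPH replicate 2), the others being 0.129 (BPH replicate 1), 0.0865, 0.143 and 0.102 (BPH+ghrelin replicates 1, 2 and 3). With normexp the measured difference was -0.15 (adjusted p = 0.217), so that the bound holds only for the scanner's own background correction, and the call was also lost without the filter (0.0541), with replicate number (0.087) or scan (0.252) as a block and with a trended and robust fit (0.053). The second probe of Gcnt1 was not well above background on any array.

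Galnt18 and B4galt7 were the 2 members whose BPH+ghrelin arrays all lay above the BPH arrays. Galnt18, another N-acetylgalactosaminyltransferase by sequence, had 7.16, 7.23 and 7.44 in BPH and 7.79, 7.71 and 7.79 in BPH+ghrelin (0.49, adjusted p = 0.273, limma), while its sham arrays had 7.56, 8.55 and 7.90. B4galt7, which adds another galactose of the proteoglycan linker, had 10.28, 10.35 and 10.39 in BPH and 10.80, 10.74 and 10.64 in BPH+ghrelin (0.39, adjusted p = 0.162). Neither passed. Myh11 (smooth muscle myosin, -0.96), Lum (lumican, a keratan sulfate proteoglycan of fibroblasts, -1.65) and Ptprc (CD45 of leukocytes, -0.82) had lower signals in this comparison, with adjusted p of 0.0157, 0.024 and 0.037 (limma). These calls rested on single arrays too. The call of Myh11 was lost without BPH replicates 1 and 2 and BPH+ghrelin replicates 2 and 3 (0.0507, 0.134, 0.103 and 0.0541). Lum and Ptprc were kept only without BPH replicate 3, and were otherwise at 0.0954 and 0.122 (BPH replicate 1), 0.148 and 0.199 (BPH replicate 2), 0.0531 and 0.0875 (BPH+ghrelin replicate 1), 0.119 and 0.175 (BPH+ghrelin replicate 2) and 0.0509 and 0.0822 (BPH+ghrelin replicate 3). Of 9 smooth muscle markers, 9 were lower by sign, of 8 fibroblast markers 7 and of 10 markers of epithelium in general 9, while 51.7% of all genes were higher. Their summed signals in BPH and BPH+ghrelin were 18700 to 35600 and 17800 to 19800 for smooth muscle, 19500 to 29800 and 18600 to 25900 for fibroblasts, and 89200 to 139000 and 86300 to 111000 for epithelium, so that the arrays of both groups overlapped for each list. Their part in the lower values of the members was not tested. The count of called members was 1 without BPH replicate 3 and 0 without any other array of these groups, at 11 to 14 members with an unadjusted p under 0.05 in limma. Over all genes, 9, 3 and 396 were called without BPH replicates 1, 2 and 3, and 79, 7 and 33 without BPH+ghrelin replicates 1, 2 and 3, from 293. With scan as a block it was 0 of the members, with 10 at an unadjusted p under 0.05, and 2 of all genes. With only the 6 arrays of both groups normalized and fitted, it was 11 of the members and 2106 of all genes.

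**Figure D3:**
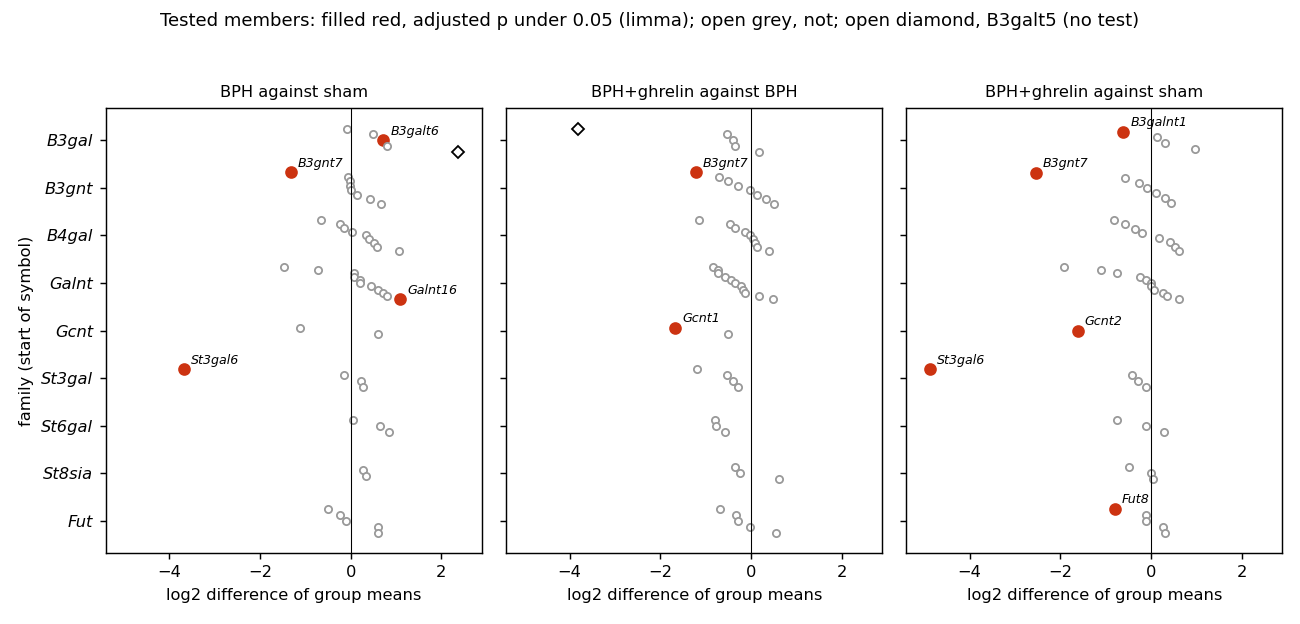
Difference of group means in log2 (horizontal axes) for each tested member, by the start of the symbol (vertical axis), in 3 comparisons; filled red points have an adjusted p under 0.05 in limma, open grey points do not, and the open diamond is B3galt5, which was not tested. In the middle panel 37 of 49 tested members lie below 0.

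In BPH+ghrelin against sham, which combines both treatments, 5 of 46 members were called (10.9%), all lower, and over all genes tested 1207 of 19197 (6.29%), with 3.3% of all genes lower and 2.99% higher. Besides St3gal6, B3gnt7 and Gcnt2 these were Fut8 and B3galnt1. The median of the members was -0.10 and that of all genes 0.04. The sign of the former turned without sham replicate 1 (0.03), it was -0.24 without sham replicate 2, and -0.01 without the filter on dim probes. Of the members, 19 members (41.3%) were higher and 27 lower by sign, compared to 54.4% of all genes that were higher. The arrays did not overlap for 6 members that were higher and 7 that were lower, compared to 17.5% and 12.8% of all genes. An unadjusted p under 0.05 was found for 14 members and 23.7% of all genes. Of 36 members that were well above background on all 6 arrays, 5 were called, and over all such genes 1195 of 16213 (7.37%), while 16 (44.4%) of these members were higher by sign, compared to 53.6% of all genes.

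Fut8, which adds the core fucose of N-glycans, had 7.57, 7.46 and 7.45 in sham, 6.69, 6.98 and 7.25 in BPH and 6.67, 6.69 and 6.72 in BPH+ghrelin. The BPH arrays spread over the range between both other groups, while BPH+ghrelin was 1.74-fold lower than sham (-0.80, SE 0.15, adjusted p = 0.0241, limma). B3galnt1, which completes the glycolipid globoside, had 7.56, 7.42 and 7.43 in sham, 7.45, 7.35 and 7.34 in BPH and 6.88, 6.84 and 6.85 in BPH+ghrelin. The BPH+ghrelin arrays lay below all 6 others, by -0.61 compared to sham (SE 0.10, adjusted p = 0.0173) and by -0.52 compared to BPH (adjusted p = 0.0569, limma), which was called after scaling to the 75th percentile (0.0364), with normexp (0.0382) or with the 6 arrays only (0.0276). Calls against sham were lost without sham replicate 3 and without any 1 BPH+ghrelin array, with adjusted p of 0.0899, 0.0779, 0.108 and 0.0662 for Fut8 and 0.0759, 0.056, 0.102 and 0.0551 for B3galnt1, for sham replicate 3 and BPH+ghrelin replicates 1, 2 and 3. Within the shared scan the differences were -0.81 for Fut8 and -0.64 for B3galnt1. The count of called members was 7, 9 and 2 without sham replicates 1, 2 and 3, and 3, 2 and 3 without BPH+ghrelin replicates 1, 2 and 3. Over all genes it was 1651, 1925 and 259, and 407, 225 and 552, from 1207.

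The highest differences in BPH+ghrelin against sham were those of B3galt4, Galnt3 and B4galt1, and none passed the threshold. B3galt4, which makes gangliosides, had 6.84, 5.95 and 6.52 in sham and 7.58, 7.47 and 7.19 in BPH+ghrelin (0.98, adjusted p = 0.0725, limma), and was called without sham replicate 1 (0.0431). Galnt3, which starts O-glycans on proteins such as the hormone Fgf23, had 10.09, 10.11 and 10.04 in sham and 10.92, 10.71 and 10.47 in BPH+ghrelin (0.62, adjusted p = 0.0708), and was called after scaling to the 75th percentile (0.0477) or normexp (0.0314). B4galt1, the main galactosyltransferase of N-glycans, had 9.23, 9.52 and 9.37 in sham and 10.18, 9.98 and 9.78 in BPH+ghrelin (0.61, adjusted p = 0.0984). For all 3 the BPH arrays were close to those of BPH+ghrelin, with differences of 0.18, 0.17 and 0.04 between both groups.

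By family, the largest difference was that of a sialyltransferase. Of 4 tested St3gal genes, St3gal6 was the one called in BPH against sham, and the range was -3.69 to 0.27. Between BPH+ghrelin and BPH, 0 of 4 St3gal and 0 of 3 St6gal genes were higher by sign, with ranges of -1.19 to -0.29 and -0.80 to -0.57. Of 11 tested Galnt genes, 9 were higher by sign in BPH than in sham (6 of 7 with the filter on all 6 arrays), and 2 in BPH+ghrelin than in BPH, and Galnt16 was the one called. The 9 include Galnt10, whose direction the filter favoured. Over all genes, 53.7% were higher by sign in BPH than in sham (51% with the filter on all 6 arrays) and 51.7% in BPH+ghrelin than in BPH. Galnt5, which missed the filter in BPH against sham and is named after its values were seen, went the other way from those 9, with 4.61, 3.89 and 4.19 in sham, of which 2 arrays were well above background, and 2.00, 2.12 and 1.84 in BPH, none of them well above background. Against the limit of detection it was at least 3.21-fold lower in BPH, without a test. The 9 tested B4gal genes include the main galactosyltransferases of N-glycans. Apart from B4galt2, which has only a bound, they ranged from -0.66 to 0.57 in BPH against sham, and all 9 from -1.15 to 0.39 in BPH+ghrelin against BPH, without a call. Of 5 tested Fut genes, 2 were higher by sign in BPH than in sham and 1 in BPH+ghrelin than in BPH.

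Of the 68 genes, 11 had 2 or more probes, and in 4 of them, which were chosen after their values were seen, both of 2 probes stood well above background in 8 or all 9 arrays. St6gal1 adds sialic acid to galactose of N-glycans. One probe had 6.32, 6.87 and 6.39 in sham, 6.75, 6.65 and 6.31 in BPH and 5.50, 5.78 and 6.04 in BPH+ghrelin, and the other, which matches another RefSeq transcript, 3.68, 3.55 and 3.53, then 3.89, 3.48 and 3.49, and then 4.19, 4.27 and 4.16. Between BPH+ghrelin and BPH these probes differed by -0.80 and 0.59, in opposite directions and both without overlap. The brighter probe stood for the gene and was not called (adjusted p = 0.0987, limma). B3galt6 had differences of 0.71 and 0.37 between BPH and sham, and of -0.39 and 0.13 between BPH+ghrelin and BPH. Fut4 had 0.59 and 0.43, and -0.32 and 0.09. B3gnt2, which extends poly-N-acetyllactosamine, had 0.13 and 0.79, and -0.71 and -1.21. In BPH+ghrelin against BPH, the dimmer probes of B3galt6 and Fut4 were close to 0 with arrays that overlapped, so that the opposite signs of their probes are no difference in direction beyond the spread.

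**Figure D4:**
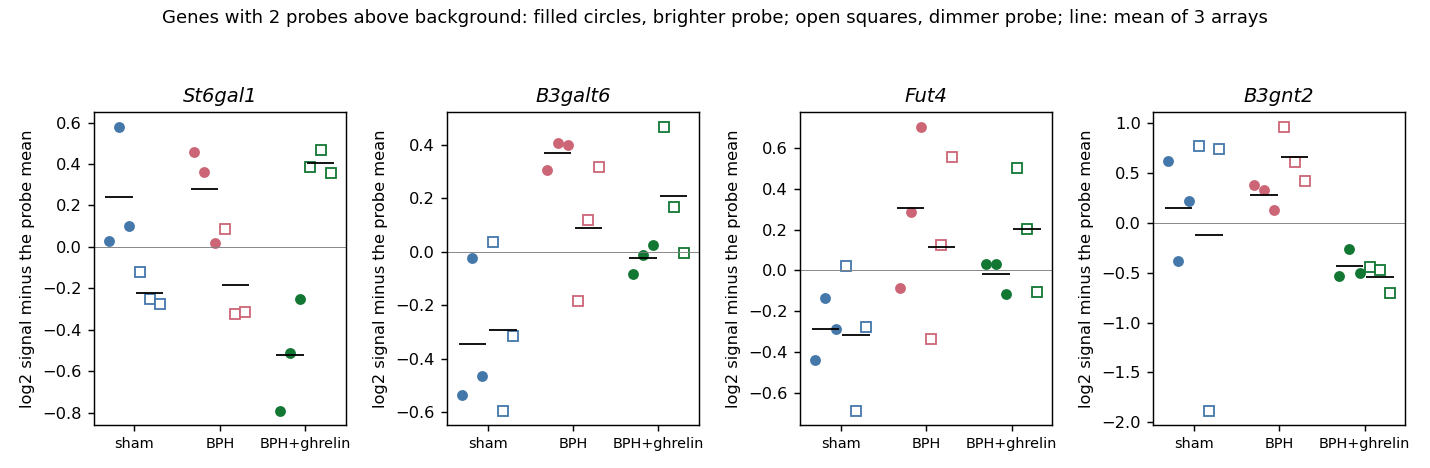
Log2 signal minus the mean of the probe over 9 arrays (vertical axes) for the 2 probes of 4 genes, by group; filled circles are the brighter probe, open squares the dimmer one, and lines are means of 3 arrays. The probes of St6gal1 part in BPH+ghrelin, at 5.77 and 4.21 compared to 6.57 and 3.62 in BPH.

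Other genes of the pathway were taken from 3 lists. Over all genes tested in BPH against sham, 4.34% were called and 53.7% were higher by sign, with a median of 0.04. In BPH+ghrelin against sham these values were 6.29%, 54.4% and 0.04. For BPH+ghrelin against BPH they were 1.48%, 51.7% and 0.02, with 21.1% of all genes at an unadjusted p under 0.05 (limma). Of 15 measured enzymes of core 1 and N-glycan branching, 13 were tested in BPH against sham, of which 1 was called lower (Man2a1, a Golgi mannosidase, -0.51, adjusted p = 0.0494, limma) and 10 were higher by sign, with a median of 0.20. Compared between BPH+ghrelin and sham, Man2a1 (-0.73, adjusted p = 0.0132) and Man1a1, another mannosidase (-1.22, adjusted p = 0.0437), were the 2 called of 12 tested, both lower. Of 18 genes of sugar nucleotide synthesis and transport, Ugp2, which makes UDP-glucose, was lower in BPH than in sham (-0.87, adjusted p = 0.0182), with 12.11, 12.20 and 12.09 in sham and 11.25, 11.25 and 11.27 in BPH. Gfpt2, which feeds the hexosamine pathway, was higher (1.14, adjusted p = 0.0346), with 3.17, 2.88 and 3.56 in sham and 4.21, 4.31 and 4.51 in BPH. The median of this list was 0.30 in BPH against sham and 0.32 in BPH+ghrelin against sham, where 16 of 18 were higher by sign and Ugp2 was the one called (-0.87, adjusted p = 0.0146). Of 9 mucins and related genes with a probe, 3 (Muc15, Tff2 and Tff3) were not well above background on any array, and 5 were tested in BPH against sham. Agr2, a chaperone of mucin folding, was lower (-2.35, adjusted p = 0.0195, limma), with 7.20, 7.77 and 7.36 in sham and 5.44, 5.17 and 4.67 in BPH. Pigr, the receptor that carries immunoglobulin A into secretions, was higher (1.30, adjusted p = 0.0138), with 7.54, 8.00 and 7.80 in sham and 8.78, 9.09 and 9.36 in BPH. Between BPH+ghrelin and BPH, limma called 0 of 13, 0 of 18 and 0 of 5 tested genes in the 3 lists, with 2, 3 and 1 genes at an unadjusted p under 0.05 and medians of -0.15, 0.00 and -0.05. Each of the calls named from these lists was lost without sham replicate 3, with adjusted p in BPH against sham of 0.15 (Man2a1), 0.0782 (Ugp2), 0.0581 (Gfpt2), 0.0768 (Agr2) and 0.0626 (Pigr), and in BPH+ghrelin against sham of 0.0626 (Man2a1), 0.143 (Man1a1) and 0.0628 (Ugp2). Without BPH replicate 2 the first 5 were 0.197, 0.108, 0.144, 0.0934 and 0.0835, and without BPH+ghrelin replicate 2 the other 3 were 0.0727, 0.131 and 0.0794. Without BPH replicate 3, Man2a1, Ugp2, Gfpt2 and Agr2 were also lost in BPH against sham (0.0866, 0.0592, 0.103 and 0.0686), as were Man2a1 and Gfpt2 without BPH replicate 1 (0.0983 and 0.0585) and Gfpt2 without sham replicate 2 (0.0524). Man1a1 was also lost in BPH+ghrelin against sham without sham replicate 1 (0.0572) and BPH+ghrelin replicates 1 and 3 (0.09 and 0.123).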

How the data were processed

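The members and gene lists were chosen with earlier results of these data known. The deposited intensities had been made by the authors with the scanner software (Feature Extraction), which had subtracted the background, and were not normalized between arrays. A deposited table gives log2 values that the authors had quantile normalized in GeneSpring. Its lowest value is 2.322, and it served as an alternative. Outlier spots were left out, spots of a probe averaged and 11 of 30367 probes dropped, and log2 signals were quantile normalized. Accessions were matched to RefSeq (GRCr8), which named 17998 probes, while the arrays carry annotation of another assembly (rn4). Where several probes of a gene passed, the brightest by mean was taken.

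Groups were compared with limma 3.58.1 (lmFit and eBayes) in R 4.3.3, with 3 groups on 9 arrays, and adjusted p means Benjamini-Hochberg over all genes tested. The fit was tested on simulated data. With 3 arrays per group, the smallest p of an exact permutation test is 0.1. Named members were those called and, by direction, the 3 with the largest difference without overlap, and list genes likewise. Bounds on folds use, per array, the lowest signal among probes well above background, and hold only for the scanner's own background correction. Alternatives tried were 75th percentile scaling, normexp (offset 50), other filters on dim probes, the 6 arrays only, the mean of probes, replicate and scan blocks, the deposited table, a trended and robust eBayes, and each array left out. Normexp used median signals, as the files hold no mean signal. The number of arrays limits the precision.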

Additional observations from a re-analysis of the deposited data

How the results depend on the processing

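The directions of the called differences were kept under every alternative run, and calls of members were lost without some single array, except those of St3gal6 in BPH against sham and in BPH+ghrelin against sham and of B3gnt7 in BPH+ghrelin against sham, which were kept with each array left out. The 4 members called in BPH against sham became 2 with no filter on dim probes, 1 with the 6 arrays only, 2 with replicate number as a block and 0 with scan as a block (8 at an unadjusted p under 0.05, limma), and 1 to 12 with 1 array left out. Over all genes the count moved from 849 to 533, 181, 242 and 2, and to 119 to 3082. With the mean of probes 3 members were called, as B3galt6 was lost (adjusted p = 0.0519, limma), and 810 of all genes. The 2 members called in BPH+ghrelin against BPH became 1 with normexp (B3galnt1, with both others lost), 0 without the filter (15 unadjusted), 1 with the filter on all 6 arrays, 11 with the 6 arrays only, 0 with the replicate block (15 unadjusted), 0 with scan as a block (10 unadjusted), 1 with trend and robust, and 0 to 1 with 1 array left out. Over all genes the count moved from 293 to 398, 188, 265, 2106, 20, 2 and 300, and to 3 to 396. The 5 members called in BPH+ghrelin against sham became 9 after scaling to the 75th percentile, 3 with the replicate block, 2 with scan as a block, and 2 to 9 with 1 array left out. Over all genes it moved from 1207 to 1327, 462 and 85, and to 225 to 1925. In all comparisons, 0 members were called without the arrays between the other 2 (6, 3 and 6 unadjusted). The cause of these changes was not tested. Same-numbered arrays of different groups had deviations that correlated between -0.0846 and 0.144, and arrays correlated best with their own number in 3 of 18 cases, so the numbers were not treated as pairs.

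Directions turned for small differences. The median of the members in BPH+ghrelin against sham (-0.10) ranged from -0.24 to 0.03 with 1 array left out. B4galt7 in BPH against sham (0.03) was -0.05 after scaling to the 75th percentile and with scan as a block, and ranged from -0.09 to 0.11 with 1 array left out. In BPH+ghrelin against BPH, B3galt4 ranged from -0.02 to 0.37 and B4galt1 from -0.10 to 0.21 with 1 array left out, B4galt1 was -0.0015 with normexp, and B4galt2 was 0.20 with scan as a block. In BPH+ghrelin against sham, Galnt18 ranged from -0.46 to 0.04 and St6galnac2 from -0.14 to 0.62 with 1 array left out. Of the other values of named members, medians and counts over all genes, 732 kept direction and side of the threshold or, with no test, moved by less than their spread, 68 lost a call, 20 gained one and 31 moved. Dim signals limit what can be said of the members that are not well above background.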
